A study of Mus musculus with 58 samples.

Results

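The 10 genes of the colony-stimulating factor 1 (CSF1) receptor axis and the transcription factors of microglia were followed here: the receptor Csf1r, its ligands Csf1 and Il34, and the factors Spi1, Irf8, Irf5, Runx1, Cebpa, Cebpb and Cebpd. They were taken by gene symbol from the deposited table of an Affymetrix array study of mouse brain. All 10 were found, each with 1 probe set, among 17216 genes with a symbol. RNA from the frontal cortex (dissected as prefrontal cortex) and the hippocampus was measured on 58 arrays from 30 mice aged 8 months, 28 of which gave both regions. Transgenic mice (TG) were made by coinjecting the construct Thy1-APPKM670/671NL and another construct under the same promoter into C57BL6J oocytes, and wild-type mice (WT) served as controls. The APP construct encodes mutant human amyloid precursor protein, and the Thy1 promoter that drives both constructs is active in neurons. Each region had 8 WT and 8 TG arrays of males. Females gave 6 WT and 6 TG arrays of the frontal cortex and 7 WT and 7 TG arrays of the hippocampus. No other treatment is given in the labels.

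CSF1R is the receptor tyrosine kinase on which microglia, the resident macrophages of the brain, depend for survival and proliferation. It binds 2 ligands: CSF1, made by glia and neurons, and IL-34, made mainly by neurons in the forebrain. Inside the cell, PU.1 (encoded by Spi1) is the ETS-family factor that sets the macrophage programme, and IRF8 works with it. RUNX1 acts in microglial development, IRF5 drives inflammatory genes downstream of Toll-like receptors, and the C/EBP proteins act in myeloid differentiation and in inflammatory and acute-phase transcription, the last also in astrocytes and neurons.

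Some arrays stood apart and bear on what follows. Thy1, whose promoter drives the transgenes, was used to check the labels, and why it reads higher in TG mice was not tested. Its log2 value lay between 11.90 and 12.38 on every TG array but 1 and between 10.55 and 11.42 on every WT array. The hippocampus array labelled female TG mouse 7 is the exception, at 10.92. Mouse App was lower in TG male frontal cortex (-0.18, adjusted p = 0.00439) and was not called in the other groups. The hippocampus array of female TG mouse 4 had a mean of 5.30 over 12 markers of hippocampal fields, against 6.74 to 7.38 on the other female TG hippocampus arrays and 5.00 to 5.27 on female TG frontal cortex arrays. Male WT mouse 51 had the lowest frontal cortex Thy1 value, 10.55, but was not far from male WT mice 38 (10.66) and 42 (10.69). Genes of blood monocytes and neutrophils were high on 3 frontal cortex arrays, with list means of 7.44 (female TG mouse 4), 5.14 (male WT mouse 42) and 4.51 (male TG mouse 44). Ttr, the main transcript of the choroid plexus, ran from 6.58 to 13.58 among hippocampus arrays. The mean of its markers ranged from 3.57 to 8.10 among the same arrays, and the group median was 7.15 in male TG hippocampus and 4.15 in male WT. The labelled tissues otherwise matched their markers: the hippocampal field mean was 6.83 or more on every hippocampus array except those of female TG mice 4 and 11. Mice of the 2 sexes were numbered apart (females up to 14, males from 38), so sex and cohort cannot be told apart. The number that ends each label was taken as the mouse, so arrays of the 2 regions with the same number were read as 1 animal.

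The annotated start regions of 6 of the 10 genes were searched for motifs that factors of these families can bind. The 6 were Csf1, Irf8, Irf5, Runx1, Cebpa and Cebpb, in 8 RefSeq windows (build GRCm38.p6). Each window ran from 250 bases before to 50 bases after an annotated start. No window of the receptor gene Csf1r, or of Il34, Spi1 or Cebpd, was searched, so the motif counts do not cover these genes. Both strands were searched for a PU.1 site (GAGGAAGT), the ETS core within it (GGAA), an IRF pair (GAAA again after any 2 bases), an ETS-IRF pair (GGAA, any 2 bases, GAAA, which contains the ETS core), a C/EBP site (TTGCNNAA) and a RUNX site (TGTGGT). The ETS core was present in all 8 windows, 1 to 6 times, but 96.0% of 32851 mouse windows hold it, with a median of 3 matches. The PU.1 site, IRF pair, ETS-IRF pair and C/EBP site, held by 3.2%, 3.44%, 2.72% and 10.8% of windows, had no match in the 8. The RUNX site, in 16.8% of windows, was found only at the upstream start of Runx1, as 2 copies at positions 29 and 37, counted from the annotated start as position 1. The windows of the ligand that rose, of the factor that rose most and of this Runx1 start are shown, with ETS cores and RUNX sites in capitals. Irf8 has another window, chr8:120738389-120738688 with 3 ETS cores, which is not shown.
Csf1, chr3:107760420-107760719, minus strand: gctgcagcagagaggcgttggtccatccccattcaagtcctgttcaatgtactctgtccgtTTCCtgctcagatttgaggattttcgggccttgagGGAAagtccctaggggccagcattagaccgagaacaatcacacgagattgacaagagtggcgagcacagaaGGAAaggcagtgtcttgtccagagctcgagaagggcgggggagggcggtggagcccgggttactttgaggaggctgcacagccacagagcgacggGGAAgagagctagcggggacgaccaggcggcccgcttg
Irf8, chr8:120736108-120736407, plus strand: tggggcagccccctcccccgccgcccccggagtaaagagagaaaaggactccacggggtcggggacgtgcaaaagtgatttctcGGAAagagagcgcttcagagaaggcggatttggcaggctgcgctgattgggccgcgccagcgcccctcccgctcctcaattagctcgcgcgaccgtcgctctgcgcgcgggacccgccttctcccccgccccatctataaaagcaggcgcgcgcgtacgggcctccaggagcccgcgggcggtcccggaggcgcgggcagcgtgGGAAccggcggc
Runx1, chr16:92826025-92826324, minus strand: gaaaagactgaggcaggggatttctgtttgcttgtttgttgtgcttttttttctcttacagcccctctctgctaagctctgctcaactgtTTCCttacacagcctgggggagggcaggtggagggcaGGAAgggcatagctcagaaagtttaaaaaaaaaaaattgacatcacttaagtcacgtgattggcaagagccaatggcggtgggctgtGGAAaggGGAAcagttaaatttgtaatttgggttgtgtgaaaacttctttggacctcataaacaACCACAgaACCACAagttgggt

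In the frontal cortex the receptor, 1 of its ligands and 6 of the 7 factors were higher in TG mice of both sexes, while the ligand Il34 was lower. A gene was called when its adjusted p in limma, over all 17216 genes, was below 0.05. In males 8 of the 10 genes were called higher and 1 lower, against 8.8% of all genes higher, 11.7% lower and 20.5% in either direction. In females the counts were also 8 and 1 of 10, against 8.75%, 10.2% and 18.9%. The median difference over the 10 genes was 0.72 on the log2 scale in males and 0.88 in females, and over all genes it was -0.02 and -0.01. With equal array medians, a scaling that moved the split of all genes, 8 and 1 members were called in each sex. Over all genes that scaling gave 1182 higher and 3403 lower in males (1515 and 2019 as deposited) and 1190 and 2804 in females (1507 and 1750). Without the 3 arrays high in blood-cell genes, left out after the data were seen, 9 members were called in each sex. The share of all genes called in that fit is not given here, so this count cannot be set against it.

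Csf1r showed no overlap between the genotypes. Its lowest, median and highest log2 values were 8.17, 8.26 and 8.56 in WT male frontal cortex, and 9.72, 9.89 and 10.14 in TG males. In females they were 8.20, 8.29 and 8.59 in WT and 9.47, 9.99 and 10.33 in TG. Every TG array therefore lay above every WT array of its sex. The TG mean was higher by 1.63 in males (SE 0.09, 3.10-fold, adjusted p = 1.76e-14) and by 1.66 in females (SE 0.10, 3.15-fold, adjusted p = 4.56e-13).

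The 2 ligands moved in opposite directions. Csf1 ran from 5.07 to 5.23 (median 5.15) in WT males and from 5.64 to 6.07 (median 5.79) in TG males. In females it ran from 4.90 to 5.20 (median 5.09) in WT and from 5.42 to 6.04 (median 5.95) in TG, again without overlap. Csf1 thus rose by 0.71 in males (SE 0.08, 1.63-fold, adjusted p = 6.33e-08) and by 0.74 in females (SE 0.09, 1.67-fold, adjusted p = 3.58e-07). Il34 had values of 5.85 to 6.32 (median 6.10) in WT males and 5.54 to 6.03 (median 5.76) in TG males. In females it had 5.90 to 6.56 (median 6.40) in WT and 5.47 to 6.19 (median 5.89) in TG. The ranges overlapped, with 6 of 8 male and 3 of 6 female TG arrays below the lowest WT array. Il34 fell by 0.33 in males (SE 0.09, adjusted p = 0.0114) and by 0.42 in females (SE 0.11, adjusted p = 0.00689). Neuronal markers moved with Il34: 3 of 10 were lower in TG males and 5 of 10 in TG females, with array means of 9.88 to 10.15 in TG against 10.05 to 10.33 in WT males, and 9.66 to 10.02 against 10.01 to 10.19 in females. Their part in the fall of Il34 was not tested.

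Irf8, the interferon regulatory factor that partners PU.1, had the largest difference of the 10 genes. In male frontal cortex it ran from 3.30 to 3.82 (median 3.71) in WT and from 5.67 to 6.61 (median 5.97) in TG. Female values were 3.53 to 3.97 (median 3.76) in WT and 5.41 to 6.81 (median 6.33) in TG. The gap between the genotypes was wider than the whole WT range in both sexes. The difference was 2.41 in males (SE 0.15, 5.31-fold, adjusted p = 2.95e-13) and 2.45 in females (SE 0.17, 5.47-fold, adjusted p = 6.23e-12).

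The lineage factors Spi1 and Runx1 rose less on this scale. Spi1 lay at 3.26 to 3.77 (median 3.50) in WT males and 3.93 to 4.70 (median 4.14) in TG males, and at 3.37 to 3.87 (median 3.61) and 3.94 to 4.50 (median 4.21) in females. It differed by 0.73 in males (SE 0.10, adjusted p = 6.87e-06) and 0.60 in females (SE 0.12, adjusted p = 0.000637). Runx1 lay at 3.16 to 3.30 (median 3.23) in WT males and 3.49 to 3.72 (median 3.59) in TG males, and at 3.08 to 3.26 (median 3.19) and 3.47 to 3.68 (median 3.55) in females. Neither gene's groups overlapped. Runx1 rose by 0.36 in males (SE 0.04, adjusted p = 4.01e-07) and 0.38 in females (SE 0.05, adjusted p = 1.93e-06). Both lie low on the arrays, with 24.0% of genes dimmer than Runx1 and 35.3% dimmer than Spi1 by the mean over all arrays. In WT mice Irf8 and Irf5 lay as low as Spi1, at no more than 3.97 and 3.93 on any array. RMA values of dim probe sets understate a fold, and this limit applies to the folds of all 4 genes.

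Irf5 separated the genotypes in females but not in males. In males it ran from 3.34 to 3.93 (median 3.60) in WT and from 3.66 to 4.41 (median 4.19) in TG, with 7 of 8 TG arrays above the highest WT array. In females it ran from 3.35 to 3.58 (median 3.42) in WT and from 4.0 to 4.96 (median 4.48) in TG. The rise was 0.50 in males (SE 0.11, adjusted p = 0.00175) and 1.02 in females (SE 0.13, adjusted p = 8.45e-07).

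The 3 C/EBP genes behaved differently from each other. Cebpd, an acute-phase factor also made by astrocytes, ran from 4.40 to 5.12 (median 4.56) in WT males and from 5.57 to 6.36 (median 6.01) in TG males. Female values were 4.43 to 4.92 (median 4.64) and 5.55 to 6.75 (median 6.34). Cebpd was higher in TG by 1.30 in males (SE 0.15, 2.46-fold, adjusted p = 1.42e-07) and 1.57 in females (SE 0.17, 2.98-fold, adjusted p = 6.09e-08), with no overlap. Cebpa, a factor of myeloid commitment, ran from 4.17 to 5.23 (median 4.79) in WT males and from 5.26 to 6.06 (median 5.62) in TG males. In females it ran from 4.23 to 4.75 (median 4.56) in WT and from 5.51 to 6.37 (median 6.02) in TG. Its groups touched closely in males without overlapping. Cebpa rose by 0.92 in males (SE 0.15, adjusted p = 3.33e-05) and 1.47 in females (SE 0.17, adjusted p = 1.62e-07). Cebpb, an inducible factor of inflammatory genes, was not called: its difference was 0.15 in males (SE 0.09, adjusted p = 0.265) and 0.26 in females (SE 0.10, adjusted p = 0.0789), and the groups overlapped. Leaving out female WT mouse 6, TG mouse 8 or TG mouse 9 brought the adjusted p of Cebpb in females to between 0.0344 and 0.0441.

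Counted over the 10 genes, every TG array lay above every WT array for 7 in males and 8 in females, against 3.08% and 4.5% of all genes. The strip plot of array values shows this separation. In the hippocampus the groups of Csf1r and Irf8 stood apart in males, and those of all other members in males and of all 10 in females overlapped.

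**Figure D1:**
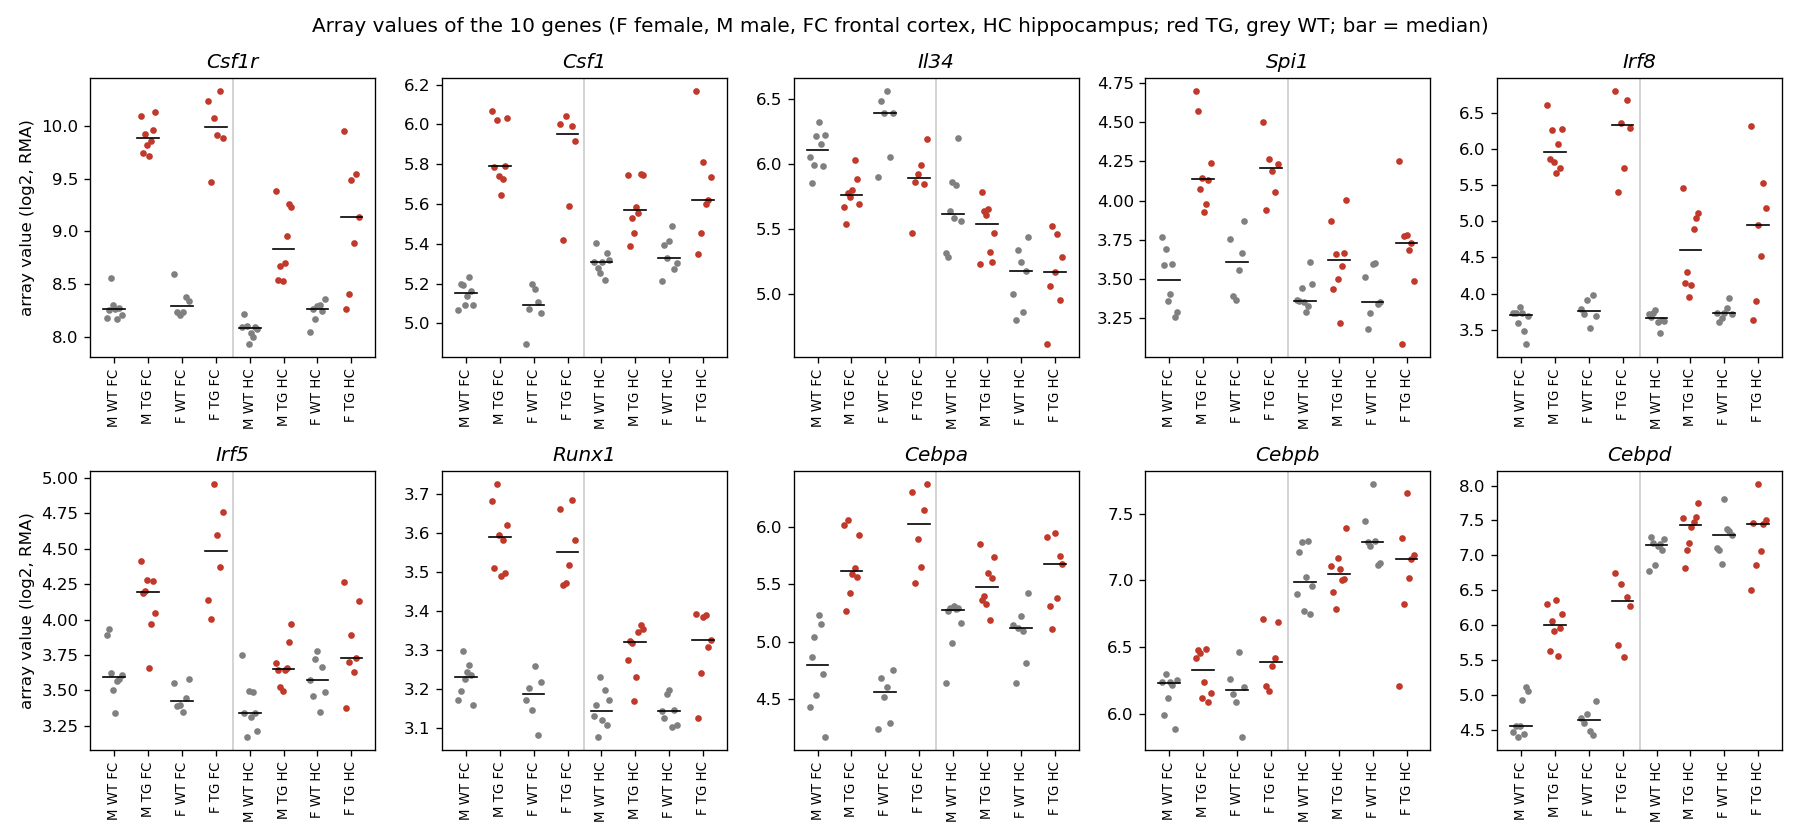
Log2 array values (RMA) of the 10 genes on the 58 arrays, 1 panel per gene and 1 point per array, with the 8 groups of sex, genotype and region along the horizontal axis, TG in red, WT in grey and the group median as a bar. Csf1r lies at 9.47 or more on every TG frontal cortex array and at 8.59 or less on every WT one, whereas the female TG hippocampus spreads from 8.26 to 9.95.

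Markers of several cell types moved with these genes in the frontal cortex. Of 17 measured microglial markers, 17 were higher in TG mice of each sex, with a median difference of 2.04 in males and 2.25 in females and array means of 8.02 to 9.24 in TG against 6.26 to 6.79 in WT. Of 11 astrocyte markers, 9 rose in males and 10 in females, among them Gfap by 3.75 (adjusted p = 2.4e-15) and 4.14 (adjusted p = 1.07e-14). Of 8 markers of border macrophages, 1 was higher in each sex: Ms4a7 in males (0.36, adjusted p = 0.0292) and Stab1 in females (0.37, adjusted p = 0.0341). Blood monocyte and neutrophil genes were called in 0 of 8 and lymphocyte genes in 0 of 10 in males and 1 of 10 in females (Cd3g, 0.24, adjusted p = 0.0445). Among 8 endothelial and mural genes 5 rose in males and 2 in females, and among 7 oligodendrocyte genes Cldn11 rose in each (0.39, adjusted p = 0.0451, and 0.72, adjusted p = 0.00191). Genes of the choroid plexus (0 of 13) and of meninges and fibroblasts (0 of 9) were not called, and 1 of 12 hippocampal field genes was lower in males and 2 in females. The arrays measured whole tissue, so more microglia and more RNA of these genes per microglial cell cannot be told apart. The part of these cell types in each gene's difference was not tested.

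In the hippocampus the same axis was called for fewer genes, and the differences were smaller. Males had 2 of the 10 genes called higher and 0 lower, against 1.04% of all genes higher and 1.3% in either direction. Females had 5 called higher and 0 lower, against 1.54% and 2.47%. At an unadjusted p below 0.05, 6 members passed in males and 7 in females, against 2341 and 2392 of all 17216 genes. The median over the 10 genes was 0.28 in males and 0.26 in females, against -0.01 over all genes in each. With equal array medians 2 members were called in males and 4 in females, and the split of all genes was 137 higher and 108 lower in males (179 and 45 as deposited) and 218 and 234 in females (265 and 160).

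Csf1r in male hippocampus ran from 7.93 to 8.22 (median 8.08) in WT and from 8.53 to 9.38 (median 8.83) in TG. In females it ran from 8.04 to 8.36 (median 8.27) in WT and from 8.26 to 9.95 (median 9.14) in TG. Male groups did not overlap. In females the array of TG mouse 7, with the WT-like Thy1 value, lay within the WT range, the next lowest was mouse 8 at 8.40, and the highest was mouse 4. Csf1r was higher by 0.84 in males (SE 0.17, 1.79-fold, adjusted p = 0.00862) and 0.86 in females (SE 0.18, 1.81-fold, adjusted p = 0.00653). Without the arrays of mice 4 and 7 the female difference was 0.85 (adjusted p = 0.00127).

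Irf8 followed the receptor. In male hippocampus it ran from 3.46 to 3.77 (median 3.66) in WT and from 3.95 to 5.46 (median 4.60) in TG, without overlap. Female values were 3.61 to 3.94 (median 3.73) in WT and 3.63 to 6.33 (median 4.95) in TG. Among TG females mouse 7 was lowest and mouse 4 highest, as for Csf1r, and 5 of 7 arrays lay above the highest WT array. Irf8 was higher by 0.98 in males (SE 0.25, adjusted p = 0.0455) and 1.12 in females (SE 0.27, adjusted p = 0.0191). Leaving out any of 11 of the 16 male arrays (WT mice 38, 39, 42, 47, 48, 49 and 51, TG mice 40, 46, 50 and 53) ended the male call, with adjusted p from 0.0631 to 0.121, and leaving out TG mouse 11 ended the female one (adjusted p = 0.0659). Without the arrays of mice 4 and 7 the female difference was 1.08 (adjusted p = 0.00439). Because all 4 hippocampus groups share 1 estimate of the spread, leaving out those 2 female arrays also moved the male adjusted p to 0.0024.

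Csf1, Cebpa and Runx1 passed the threshold in females and missed it in males. Csf1 ran from 5.21 to 5.49 (median 5.33) in WT and from 5.35 to 6.17 (median 5.62) in TG females, a difference of 0.33 (SE 0.08, adjusted p = 0.0231). In males it ran from 5.22 to 5.40 (median 5.31) in WT and from 5.39 to 5.75 (median 5.57) in TG, a difference of 0.29 (SE 0.08, adjusted p = 0.0506), with 7 of 8 TG arrays above the highest WT array. The female call of Csf1 was lost without WT mouse 1 (adjusted p = 0.0607), and the male difference passed without TG mouse 41 (adjusted p = 0.026) or 44 (adjusted p = 0.0483). Without the arrays of mice 4 and 7 it passed as well (adjusted p = 0.00258). Cebpa was higher by 0.52 in females (SE 0.13, adjusted p = 0.0273) and differed by 0.35 in males (SE 0.12, adjusted p = 0.173). Runx1 was higher by 0.16 in females (SE 0.04, adjusted p = 0.0282) and differed by 0.15 in males (SE 0.04, adjusted p = 0.0519), which passed without TG mouse 44 (adjusted p = 0.0283) or 45 (adjusted p = 0.0466). The Cebpa call in females was lost without WT mice 2 or 13 or TG mice 4, 9, 11 or 12 (adjusted p 0.0551 to 0.0753). The Runx1 call was lost without WT mice 1, 2, 6 or 14 or TG mice 4, 9, 10, 11 or 12 (adjusted p 0.0518 to 0.0624).

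The remaining genes were not called in the hippocampus. Il34 differed by -0.17 in males (SE 0.13, adjusted p = 0.63) and 0.03 in females (SE 0.14, adjusted p = 0.957). Spi1 differed by 0.21 (SE 0.11, adjusted p = 0.4) and 0.28 (SE 0.12, adjusted p = 0.260). The Spi1 difference passed in females without TG mouse 7 (adjusted p = 0.0402). Irf5 differed by 0.30 (SE 0.10, adjusted p = 0.148) and 0.24 (SE 0.11, adjusted p = 0.279), Cebpb by 0.03 (SE 0.13, adjusted p = 0.958) and -0.27 (SE 0.14, adjusted p = 0.409). Cebpd differed in males by 0.26 (SE 0.16, adjusted p = 0.487), and in females by -0.00069 (SE 0.17, 95% interval -0.34 to 0.34, adjusted p = 0.999), a value that ran from -0.13 to 0.13 with 1 array left out.

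Over the 10 genes, every TG hippocampus array lay above every WT array for 2 in males (Csf1r and Irf8) and 0 in females, against 0.68% and 0.197% of all genes. Fitting each sex's hippocampus alone called 4 members in males and 0 in females, where the adjusted p of Csf1r was 0.106 and its SD among TG arrays 0.62. The shares of all genes given above belong to the main fit and not to these fits. Microglial markers moved alongside here too: 13 of 17 were higher in males and 14 of 17 in females, with median differences of 1.08 and 1.19. Of the other lists, Pf4 of 8 border macrophage genes (0.40, adjusted p = 0.0229) and Gfap of 11 astrocyte genes (1.38, adjusted p = 0.00417) rose in males, Gfap and Aqp4 (1.55, adjusted p = 0.00225, and 0.56, adjusted p = 0.0377) rose in females, and Rbfox3 of 10 neuronal genes (-0.19, adjusted p = 0.0212) and 2 of 12 hippocampal field genes were lower in females. No gene was called in the lists of blood cells, lymphocytes, endothelium, oligodendrocytes, meninges or choroid plexus. Choroid plexus markers differed by a median of 1.68 between male TG and WT hippocampus, with 0 of 13 called. The part of these cell types was not tested, except that with the choroid plexus mean as a covariate Csf1r in males differed by 0.86 (adjusted p = 0.0329) and Irf8 by 1.01 (adjusted p = 0.117).

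**Figure D2:**
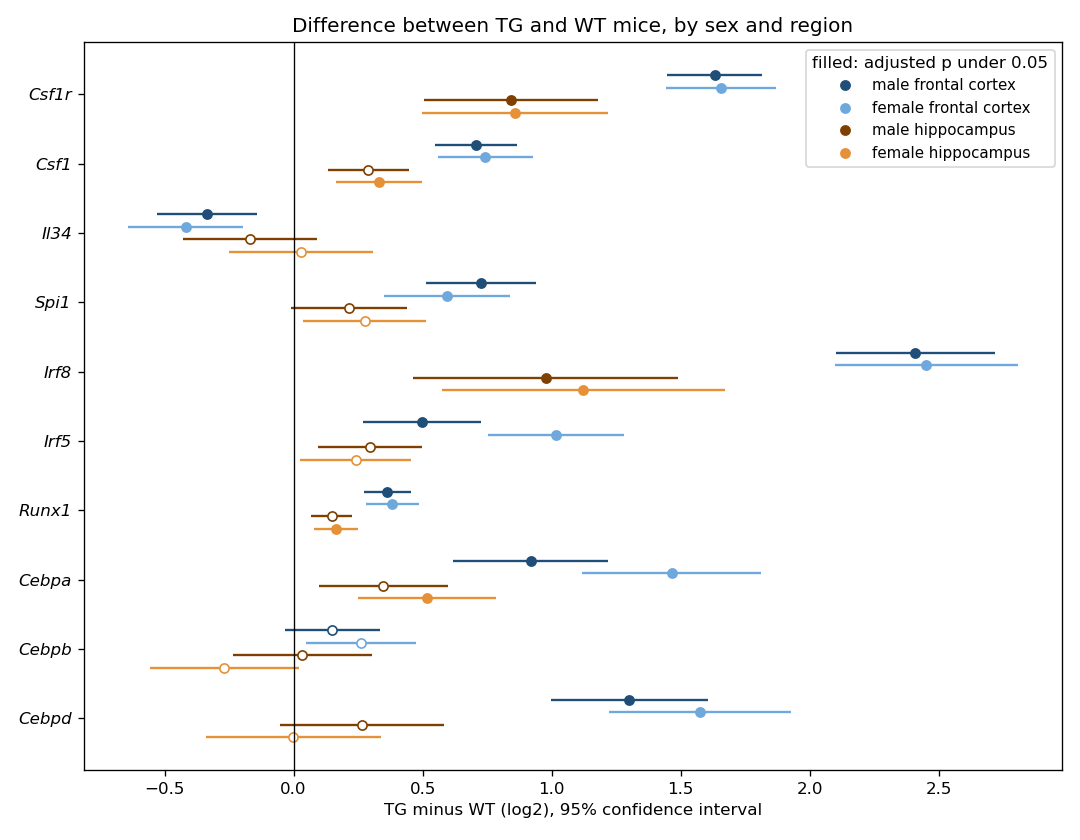
Difference between TG and WT means (log2, horizontal axis) of each gene with its 95% confidence interval, in 4 colours for sex and region, filled where the adjusted p is below 0.05. The frontal cortex points lie to the right of the hippocampus points for every gene except Il34, which lies left of 0 in the cortex.

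Whether the TG effect was smaller in the hippocampus was tested as a difference of differences over all 8 groups. This fit treated the 2 arrays of a mouse as independent, and fits with the mouse as a block are given below. In males 5 of 10 genes had a smaller difference in the hippocampus, against 1.07% of genes smaller and 1.66% changed in either direction. These were Irf8 (-1.43, SE 0.31, adjusted p = 0.0104), Cebpd (-1.04, SE 0.22, adjusted p = 0.011), Csf1r (-0.79, SE 0.20, adjusted p = 0.0229), Runx1 (-0.22, SE 0.05, adjusted p = 0.0273) and Csf1 (-0.42, SE 0.11, adjusted p = 0.0345). In females 4 of 10 were smaller, against 0.807% and 1.01%: Cebpd (-1.58, SE 0.25, adjusted p = 0.000264), Irf5 (-0.78, SE 0.17, adjusted p = 0.014), Cebpa (-0.95, SE 0.22, adjusted p = 0.0205) and Irf8 (-1.33, SE 0.34, adjusted p = 0.0371). Csf1r in females was close to the threshold (-0.80, SE 0.22, adjusted p = 0.0532).

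The mouse links the 2 regions, and with the mouse as a fixed block Csf1r passed in females as well (-0.67, adjusted p = 0.00175), together with Csf1 (-0.36, adjusted p = 0.0136). The same block added Cebpa (-0.57, adjusted p = 0.00938) and Spi1 (-0.51, adjusted p = 0.0119) in males. Without the hippocampus arrays of mice 4 and 7 and the frontal cortex array of mouse 51, the female difference of Csf1r was -0.80 (adjusted p = 0.00805). Several calls rested on single arrays. In males Csf1r lost its call without the hippocampus array of TG mouse 44 (adjusted p = 0.0512), Runx1 without that array or the cortex array of TG mouse 43, and Csf1 without any of 13 of the 32 arrays (cortex WT 38, 48 and 52 and TG 40, 43 and 53, hippocampus WT 38 and 39 and TG 41, 43, 44, 45 and 46, adjusted p 0.0505 to 0.0672). Spi1 passed without the hippocampus array of TG mouse 40 or 53 (adjusted p = 0.0427 and 0.0393). In females Irf8 lost its call without any of 12 of the 26 arrays (cortex WT 2, 6 and 14 and TG 4, 9 and 11, hippocampus WT 5, 6 and 14 and TG 7, 8 and 10, adjusted p up to 0.108), and Cebpa without the cortex array of TG mouse 4 or 11 or the hippocampus array of TG mouse 8 (adjusted p up to 0.0621). Csf1r passed without the array of cortex WT 1, TG 8 or TG 10 or hippocampus WT 1, TG 4, TG 9 or TG 11 (adjusted p 0.00226 to 0.0476), Csf1 without cortex TG 8 or 10 or hippocampus TG 4, and Runx1 without those or hippocampus TG 9. Without the arrays high in blood-cell genes, Irf8 (-1.21, adjusted p = 0.122) and Cebpa (-0.88, adjusted p = 0.0639) were not called in females.

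The TG effect was then compared between the sexes, the question in the study's title. In limma 0 of 10 members were called in either region, against 0% of all genes, and at an unadjusted p below 0.05 there were 2 members in the frontal cortex, 0 in the hippocampus, and 1130 and 842 of all genes. The 2 were Irf5, whose difference was larger in females by 0.52 (95% interval 0.17 to 0.87, adjusted p = 0.712), and Cebpa, larger by 0.55 (0.09 to 1.0, adjusted p = 0.718). For Csf1r the sex difference in the frontal cortex was 0.02, with an interval from -0.26 to 0.31, and for Irf8 it was 0.04, from -0.43 to 0.51. In the hippocampus these intervals were wider, from -0.48 to 0.51 for Csf1r and from -0.61 to 0.90 for Irf8.

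Control mice gave the baseline of each gene. WT females and WT males differed in no member in the frontal cortex, against 0.157% of all genes called. At an unadjusted p below 0.05, 0 of 10 members passed there, against 1978 of all 17216 genes. In the hippocampus Il34 was lower in WT females (1 of 10 members, against 1.02% of genes). It ran from 4.80 to 5.44 (median 5.18) in females and from 5.29 to 6.20 (median 5.61) in males, a difference of -0.54 (SE 0.13, adjusted p = 0.0375). The ranges overlapped, and the call was lost without any of 11 of the 15 arrays (males 42, 47, 48, 49, 51 and 52, females 1, 2, 5, 6 and 13, adjusted p up to 0.0934) and with equal array medians (-0.53, adjusted p = 0.0511).

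Between regions, WT hippocampus and WT frontal cortex differed in all 3 C/EBP genes and in Il34, and most in Cebpd. In males 4 of 10 members were called, against 32.7% of all genes, and in females 5 of 10, against 26.6%. Cebpd was higher in the hippocampus by 2.39 in males (SE 0.16, adjusted p = 9.18e-19) and 2.62 in females (SE 0.18, adjusted p = 2.41e-18). Its WT hippocampus values (6.78 to 7.81) lay above every frontal cortex value, those of TG mice included (at most 6.75). Cebpb was higher in the hippocampus by 0.87 (SE 0.12, adjusted p = 1.48e-08) and 1.16 (SE 0.13, adjusted p = 1.42e-10), and Cebpa by 0.39 (SE 0.14, adjusted p = 0.0261) and 0.55 (SE 0.16, adjusted p = 0.00459). The male call of Cebpa was lost without the cortex array of WT mouse 38, 47 or 52 (adjusted p up to 0.0892). Il34 was lower in the hippocampus by 0.44 in males (-0.44, SE 0.12, adjusted p = 0.00192) and by 1.18 in females (-1.18, SE 0.13, adjusted p = 6.42e-11). Csf1 was higher by 0.26 in WT females (SE 0.09, adjusted p = 0.0179; adjusted p = 0.0625 without the cortex array of mouse 1) and by 0.16 in males (adjusted p = 0.117). With the mouse as a fixed block, Csf1 in males passed (0.16, adjusted p = 0.0159), as did Csf1r, lower in the hippocampus (-0.21, adjusted p = 0.0354). Spi1, Irf8, Irf5 and Runx1 were not called between regions in either sex, although Irf5 passed in males without the cortex array of mouse 48 (-0.28, adjusted p = 0.044) or the hippocampus array of mouse 38 (-0.29, adjusted p = 0.0335), and Runx1 in males with equal array medians (-0.10, adjusted p = 0.043).

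Ordered by group median, Csf1r was highest in female and male TG frontal cortex (9.99 and 9.89). Female and male TG hippocampus came next (9.14 and 8.83). The 4 WT groups followed, with female frontal cortex at 8.29, female hippocampus at 8.27, male frontal cortex at 8.26 and male hippocampus at 8.08. The ranges of the sexes overlapped within each TG tier, where no direct test was made, and the WT groups were not called different by sex or region, apart from the blocked male comparison above. Cebpd had another order, with all 4 hippocampus medians (7.14 to 7.45) above the TG frontal cortex (6.34 and 6.01), and WT frontal cortex lowest (4.64 and 4.56).

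Within the TG groups, mice with more Csf1r RNA also had more Irf8 and Csf1 RNA. Values were taken as deviations from the mean of each sex, genotype and region, and 36 relations with Csf1r were computed, with permutation tests within sex and adjustment over all 36. In TG frontal cortex (14 arrays) Irf8 had Pearson's r = 0.87 (permutation p = 0.00026, adjusted p = 0.00312) and Spearman's rho = 0.82 (p = 0.00151, adjusted p = 0.0181). Csf1 had r = 0.84 (permutation p = 0.00045, adjusted p = 0.00405) and rho = 0.76 (p = 0.00503, adjusted p = 0.0362). Without the 2 arrays farthest from the median of Csf1r, r was 0.79 and 0.76. Cebpa (r = 0.68, permutation p = 0.0132) and Runx1 (r = 0.65, permutation p = 0.0136) passed by Pearson's r (adjusted p = 0.0409 for each) but not by rho (0.53 and 0.66, permutation p = 0.0729 and 0.0195, adjusted p = 0.188 and 0.0701).

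In TG hippocampus (15 arrays) the relation with Irf8 was closer, with r = 0.97 (permutation p = 1e-05, the smallest that 100000 resamples can give, adjusted p = 0.00036) and rho = 0.94 (p = 3e-05, adjusted p = 0.00108). Csf1 had r = 0.91 (permutation p = 4e-05, adjusted p = 0.00072) and rho = 0.87 (p = 0.00011, adjusted p = 0.00198), and Cebpa r = 0.84 (permutation p = 0.00058, adjusted p = 0.00418) and rho = 0.78 (p = 0.00221, adjusted p = 0.0199). The 2 arrays farthest from the median of Csf1r were those of mice 4 and 7. Without them, with means retaken over 13 arrays, r was 0.94 for Irf8, 0.86 for Csf1 and 0.82 for Cebpa.

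Il34 ran the other way. Its relation with Csf1r in TG hippocampus had r = -0.74 (permutation p = 0.00501, adjusted p = 0.0225) and rho = -0.72 (p = 0.00634, adjusted p = 0.038), and r = -0.90 without mice 4 and 7. In TG frontal cortex it was r = -0.29 (permutation p = 0.421, adjusted p = 0.689; rho = -0.34, p = 0.265). Spi1 and Irf5 rose with Csf1r in TG hippocampus (r = 0.74, permutation p = 0.00305, adjusted p = 0.0183, and r = 0.77, permutation p = 0.00484, adjusted p = 0.0225; rho = 0.68 and 0.71, p = 0.00937 and 0.00997, adjusted p = 0.0449 for each), but r was 0.47 and 0.54 without mice 4 and 7, so the strength of these relations rested on those arrays. Runx1 had r = 0.68 (permutation p = 0.0104, adjusted p = 0.0376; rho = 0.60, p = 0.0372, adjusted p = 0.122) and 0.49 without them. Cebpd and Cebpb changed the most: r was 0.19 (permutation p = 0.572, adjusted p = 0.82) and -0.14 (permutation p = 0.721, adjusted p = 0.884) over all 15 arrays, and 0.84 and 0.63 without the 2.

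Within sexes, r in TG hippocampus was 0.97 in both for Irf8, 0.94 in males and 0.90 in females for Csf1, and -0.89 and -0.68 for Il34. In TG frontal cortex it was 0.76 and 0.92 for Irf8, and 0.84 and 0.86 for Csf1. Among WT arrays the 18 relations passed only once, for Csf1 in the hippocampus (r = 0.69, permutation p = 0.00744, adjusted p = 0.0298; rho = 0.66, p = 0.0114, adjusted p = 0.0455), where r was 0.52 without the 2 farthest arrays. The difference between TG and WT relations was not tested, nor was the part of microglial content in the relations.

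**Figure D3:**
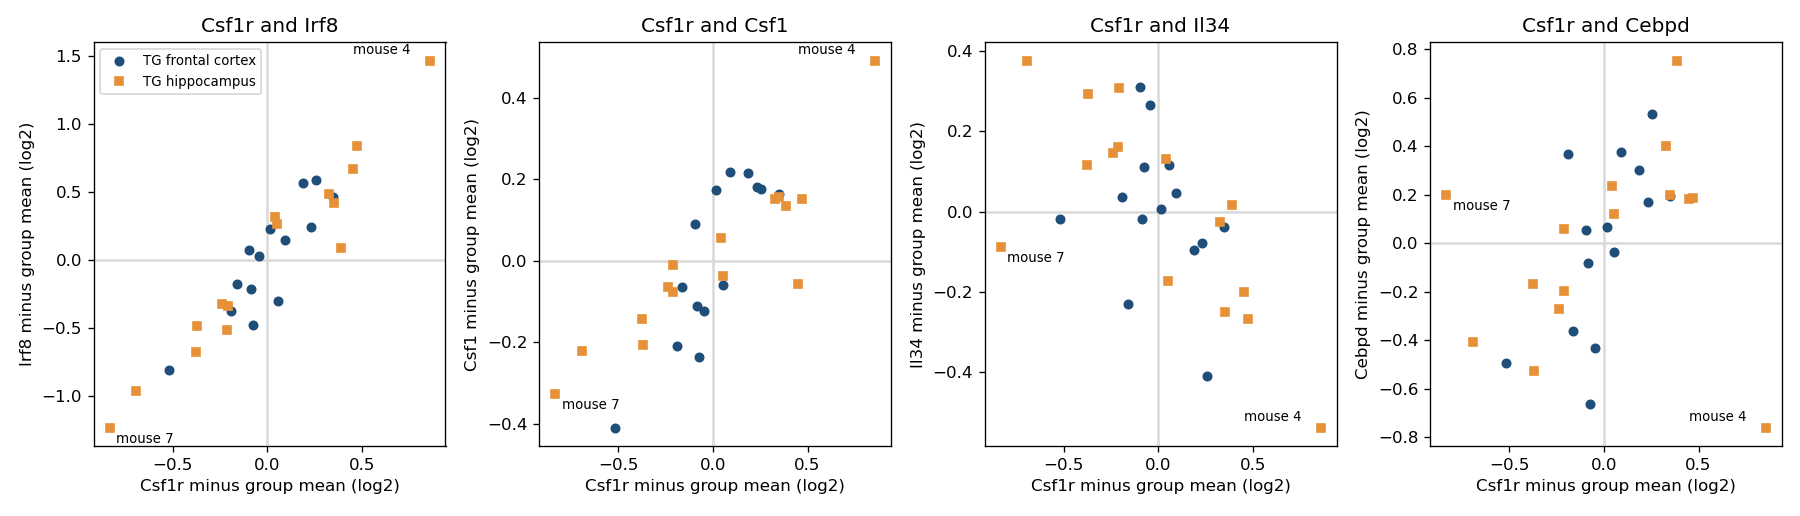
Deviation of Csf1r from its group mean (log2, horizontal axis) against that of Irf8, Csf1, Il34 and Cebpd (log2, vertical axes) on the TG arrays, frontal cortex as blue circles and hippocampus as orange squares. Irf8 and Csf1 climb with Csf1r in both regions. Il34 declines in the hippocampus (r = -0.74), whereas in the frontal cortex r was -0.29 and did not pass. The labelled hippocampus arrays of mice 4 and 7 sit at the 2 ends of the Csf1r axis and off the trend of Cebpd.

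A TG mouse high in Csf1r in one region was high in the other. Over 14 TG mice with both arrays, deviations of Csf1r in the frontal cortex and the hippocampus had r = 0.88 (permutation p = 0.00024, adjusted p = 0.0048 over 20 relations) and rho = 0.86 (p = 0.00041, adjusted p = 0.0082). Irf8 had r = 0.83 (permutation p = 0.00081, adjusted p = 0.0081) and rho = 0.82 (p = 0.00117, adjusted p = 0.0117). Without the 2 mice farthest from the cortex median r was 0.87 and 0.71. Without mouse 4, over 13 mice, it was 0.89 and 0.80. Within sexes r was 0.84 in 8 males and 0.92 in 6 females for Csf1r, and 0.64 and 0.95 for Irf8. The mean of the microglial markers was also highest in the same TG mice in both regions. In cortex and hippocampus it was 8.79 and 8.06 in male 40, and 8.79 and 7.74 in male 53. In females it was 9.17 and 8.71 in mouse 4, and 9.24 and 8.27 in mouse 11. Lower ranks differed, as in male 46, lowest of the males in the cortex (8.24) but not in the hippocampus (7.32). The part of microglial content in these relations was not tested.

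The other members did not pass after adjustment over all 14 TG mice. Cebpa (r = 0.64, permutation p = 0.0225, adjusted p = 0.15; rho = 0.57, p = 0.053) and Csf1 (r = 0.61, permutation p = 0.0385, adjusted p = 0.193; rho = 0.66, p = 0.0184) came nearest. Runx1 had r = 0.05 (permutation p = 0.863) and Irf5 r = 0.00 (permutation p = 0.992). Without mouse 4, whose hippocampus array had cortex-like levels of field genes, r over 13 mice was 0.71 for Cebpd (0.28 with it), 0.63 for Csf1, 0.61 for Cebpa, 0.27 for Irf5 and -0.24 for Il34 (0.30 with it), with no test. Among 14 WT mice none of the 10 genes passed, and Csf1r had r = -0.38 (permutation p = 0.207, adjusted p = 0.376; rho = -0.24, p = 0.436).

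**Figure D4:**
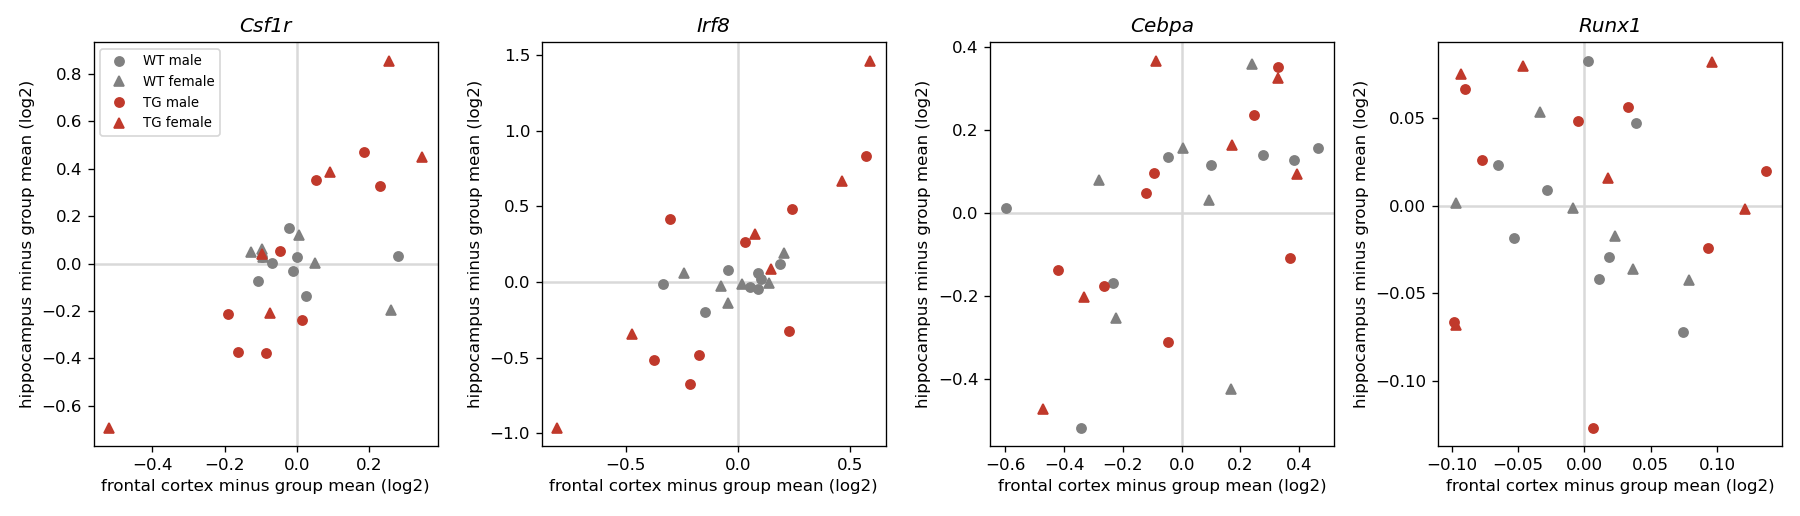
Deviation from the group mean (log2) of Csf1r, Irf8, Cebpa and Runx1 in the frontal cortex (horizontal axes) and the hippocampus (vertical axes) of the same mouse, TG in red, WT in grey, circles males, triangles females. TG mice line up along a rising diagonal for Csf1r (r = 0.88) and Irf8 (r = 0.83), and WT mice cluster near 0 for both.

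The genes whose pattern was most like each member were taken by the highest correlation of deviations from the 8 group means over all 58 arrays. These arrays share mice and scaling, so the values are descriptions. Csf1r was closest to Tyrobp (r = 0.97), the adaptor of TREM2, and to the complement genes C1qa (0.97) and C1qc (0.97). Irf8 was closest to the chemokine Ccl6 (0.93), Trem2 (0.93) and the lysosomal gene Laptm5 (0.93). Csf1 was closest to Lag3 (0.82), Ccl3 (0.82) and Capg (0.81), the last encoding an actin-capping protein. Without the hippocampus arrays of mice 4 and 7, r was 0.95 to 0.96 for the Csf1r pairs and 0.90 for each Irf8 pair. For the Csf1 pairs it was 0.73 to 0.76.

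For the other members the highest correlations were lower. Spi1 was closest to Hhex (0.65), Cd53 (0.65) and Siglecf (0.64), Irf5 to Siglecf (0.64), Naip2 (0.62) and Vrk2 (0.61), and Runx1 to Rgs10 (0.62), Tmem119 (0.61) and Lag3 (0.61). Cebpa was closest to Rgs10 (0.62), Scamp2 (0.61) and Tsc22d4 (0.60), and Cebpd to Sema5a (0.65), Sipa1l2 (0.64) and Golm1 (0.64). Il34 was closest to Pip4k2c (0.69), Necap1 (0.68) and Rab3a (0.67), the last encoding a GTPase of synaptic vesicles. Without the hippocampus arrays of mice 4 and 7, these values ran from 0.51 (Spi1 with Siglecf) to 0.65 (Il34 with Pip4k2c). In the hippocampus alone, r without those arrays ran from 0.24 (Irf5 with Siglecf, 0.55 with them) to 0.74 (Il34 with Rab3a, 0.78 with them).

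The 3 genes closest to Cebpb were Prox1 (0.75), Dsp (0.73) and Lct (0.73), known in the hippocampus as genes of dentate granule neurons. This likeness was found in the hippocampus (r = 0.86, 0.89 and 0.87) and remained without mice 4 and 7 (0.75, 0.80 and 0.76), whereas in the frontal cortex r was 0.46, -0.10 and 0.22. Over the 58 arrays Cebpb had r = 0.50 with Cebpd, 0.26 with Cebpa and -0.05 with Csf1r.

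Genes that act with the receptor moved with it in part. Of 23 genes of CSF1R signalling and shedding, 19 were measured. In the frontal cortex 9 rose in males and 11 in females, with medians over the list of 0.17 and 0.27, and none was called lower. In the hippocampus 1 rose in males and 5 in females. The steepest were Tyrobp (3.25, 3.40, 2.03 and 1.94 in male and female cortex and male and female hippocampus, adjusted p = 1.77e-17, 2.62e-16, 0.000888 and 0.00225) and Ptpn6, the phosphatase SHP-1, in 3 of these comparisons (2.15, 2.62 and 1.17, adjusted p = 9.55e-12, 3.33e-12 and 0.011), with 0.90 in male hippocampus (adjusted p = 0.0519). Plcg2 rose by 1.31 and 1.33 in the cortex and by 0.56 in female hippocampus (adjusted p = 0.042). Inpp5d, the phosphatase SHIP-1, rose by 0.71 and 1.17 in the cortex and 0.65 in female hippocampus (adjusted p = 0.0039). Adam17, the protease that sheds CSF1R, rose by 0.59 and 0.73 in the cortex and 0.36 in female hippocampus (adjusted p = 0.013). Ptprz1, another receptor for IL-34 found on glia, rose by 0.36 (adjusted p = 0.016) and 0.53 (adjusted p = 0.0026) in the cortex. Widely expressed adaptors such as Grb2 (0.00 and -0.16), Cbl (0.08 and -0.12) and Akt1 (-0.06 and 0.15) were not called in the cortex.

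Among 12 genes of the other colony-stimulating factors and their receptors, the genes that rose all encode receptors. In the cortex 4 rose and 1 fell in males, and 3 rose and 1 fell in females. Csf3r, the receptor for granulocyte CSF, rose by 1.60 (adjusted p = 5.2e-10) and 1.64 (adjusted p = 7.2e-09), Csf2ra by 0.42 and 0.47 and Csf2rb by 0.41 and 0.45, while Csf2rb2 rose in males (0.34, adjusted p = 0.00816). Kit fell by 0.20 (-0.20, adjusted p = 0.04) and by 0.25 (-0.25, adjusted p = 0.023). Csf2, Csf3, Il3 and Flt3l were not called in any group, and no gene of the list was called in the hippocampus.

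Relatives of the factors were called in part. Among 6 measured IRF genes, 3 rose in male and 4 in female cortex: Irf9 by 0.98 and 1.04, Irf7 by 0.47 and 0.54, Irf1 by 0.40 and 0.60, and Irf3 in females by 0.21 (adjusted p = 0.029). Irf9, part of the complex that answers type I interferon, was also higher in female hippocampus (0.78, adjusted p = 0.0046). Of 10 leukocyte ETS factors, Elf1 (0.83 and 0.64), Fli1 (0.60 and 0.74), Elk3 (0.57 and 0.59) and Ets1 (0.23 and 0.26) rose in the cortex of both sexes, and Etv5 fell (-0.37 and -0.43). Ets2 was lower in male cortex (-0.29, adjusted p = 0.035) and female hippocampus (-0.25, adjusted p = 0.013). Fli1 rose in female hippocampus (0.36, adjusted p = 0.036) and Elk3 in male hippocampus (0.32, adjusted p = 0.028).

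Of 5 measured RUNX and C/EBP relatives, Cbfb, the DNA-binding partner of RUNX1, rose by 0.28 and 0.42 in the cortex (adjusted p = 0.00059 and 2.9e-05) and Cebpg by 0.26 and 0.24, while Runx1t1 fell in female cortex (-0.31, adjusted p = 0.024). None was called in the hippocampus. Of 15 other factors of microglia and macrophages, Ikzf1 rose by 0.74 and 0.90 in the cortex and 0.43 in female hippocampus, Stat3 by 0.65, 0.77 and 0.37 in the same groups, and Rela by 0.30 and 0.50 in the cortex. Sall1, a factor of microglial identity, rose in female cortex (0.57, adjusted p = 0.011), as did Mitf (0.30, adjusted p = 0.031), and Maf rose in male cortex (0.31, adjusted p = 0.00026). Mef2c fell in the cortex (-0.19 and -0.21), and Bhlhe40 in female hippocampus (-0.35, adjusted p = 0.014). CSF1R signalling is known to drive division of microglia. Of 15 genes of the cell cycle, 2 rose in male cortex (Ccnd1, 0.29, and Mcm2, 0.16), 8 in female cortex, among them Top2a (0.38, adjusted p = 0.0083) and Ccnd1 (0.41, adjusted p = 0.0038), 0 in male hippocampus and 1 in female hippocampus (Mcm3, 0.17, adjusted p = 0.0435). Over all genes, 8.8%, 8.75%, 1.04% and 1.54% were called higher in these 4 comparisons.

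**Figure D5:**
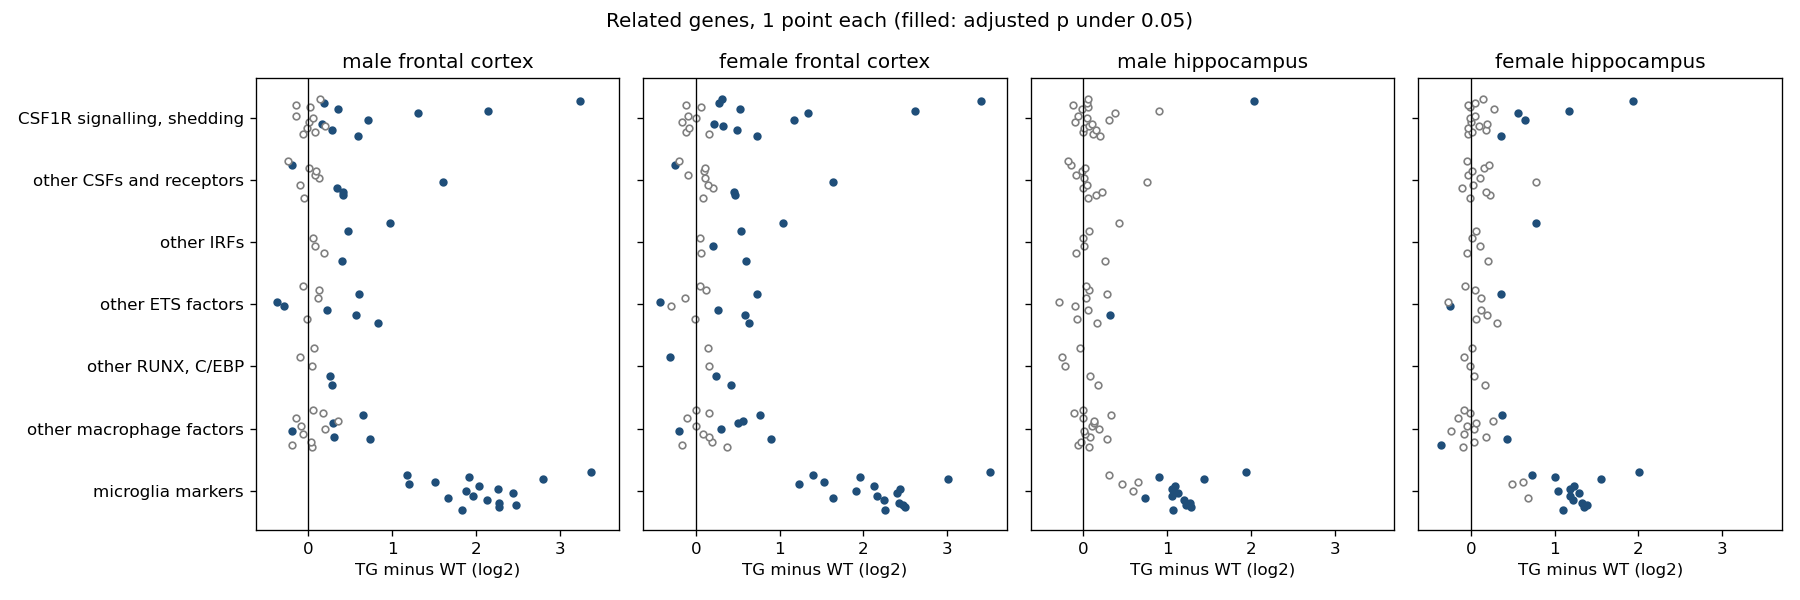
Difference between TG and WT (log2, horizontal axis) of the measured genes in 6 lists related to the members and in the list of microglial markers, 1 point per gene and 1 panel per sex and region, filled where the adjusted p is below 0.05. Microglial markers lie between 1.18 and 3.52 in the cortex. Most genes of the family lists lie lower, and several of them are called there, among them Irf9 (0.98 in males and 1.04 in females).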

How the data were processed

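Per the submitters' processing notes, the authors normalised the arrays with RMA in R 3.2.2 and deposited log2 values; the chip definition file and genome build are not given in the sources used here. The deposited table holds 17856 probe sets on 58 arrays, with values of 2.28 to 13.6 and array medians of 4.74 to 4.86. Of these, 17216 carry 1 gene symbol, 640 stay unnamed, and 0 columns were left unused. The number of arrays limits the precision.

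The log2 values were tested as deposited with limma 3.58.1 in R 4.3.3 (lmFit and eBayes, two-sided, Benjamini-Hochberg over 17216 genes at 0.05, intervals of 95%). Comparisons within a region used its 4 groups, and comparisons across regions all 8. The code was tested on simulated data. Relations used scipy 1.17.1 with 100000 permutations within sex, two-sided. The mouse pairs the regions because arrays with the same number were taken as 1 animal. Over 28 mice the correlation of deviations from the group means ran from -0.03 to 0.36 (median 0.11, above 0.1 in 15).

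Alternatives were quantile normalisation, equal array medians, another prior, a level filter, other sample sets, a choroid plexus covariate, the mouse as a block, and arrays left out. Promoter windows are RefSeq's (GRCm38.p6). The text names genes by rule: the 10 genes, App, Thy1 and Ttr as checks, the 3 genes most alike to each member, called genes of the CSF1R signalling and family lists, and up to 4 genes of smallest p from each of the 18 lists (195 of 216 listed genes measured). Other list genes named were chosen after their values were seen. The lists cover CSF1R signalling, other colony-stimulating factors, relatives of the factors (IRF, ETS, RUNX and C/EBP, other microglial factors), proliferation and markers of 11 cell types or structures. The 10 genes and the lists were chosen with earlier results of these data known. Listed genes without a symbol here were not analysed here, and 1 item is not reported here.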

Additional observations from a re-analysis of the deposited data

Results flagged for a closer look

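Of 80 sets of values tested (10 genes in 8 groups), 1 held an array far from the rest of its group, where chance marks about 1 in 20. In WT male frontal cortex the Csf1r value of mouse 42 was 8.56, and the nearest other value was 8.30. The same array had a high mean of blood-cell genes (5.14), and their part in the value was not tested.

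The TG effect differed between the regions for the genes called in that test, and each difference was smaller in the hippocampus. In males these were Irf8 (-1.43), Cebpd (-1.04), Csf1r (-0.79), Csf1 (-0.42) and Runx1 (-0.22). In females they were Cebpd (-1.58), Irf8 (-1.33), Cebpa (-0.95) and Irf5 (-0.78).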

How the results depend on the processing

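The frontal cortex counts moved little: 9 members were called in males and 9 to 10 in females whichever array was left out, and 6 in males among genes above the median level, a filter that only 7 members pass. Over all genes, 3031 to 3857 were called in males and 2372 to 3558 in females with 1 array left out. Members called in male hippocampus numbered 2 as reported. They were 1 with quantile normalisation, 1 with a trended robust prior, 1 with the choroid plexus covariate, 4 with only the groups compared, 4 with all 8 groups, and 5 without hippocampus mice 4 and 7 and cortex mouse 51. Leaving out 1 array gave 1 to 4, and 94 to 337 over all genes. In female hippocampus the 5 became 3 among genes above the median level (6 members pass), 0 with only the groups compared and 2 to 6 with 1 array left out. Over all genes, 178 to 604 were called there with 1 array left out. Where no count over all genes stands beside an alternative, its share is not given here. The region difference in males went from 5 to 3 among genes above the median level and 3 with the choroid covariate, and ran from 2 to 6 with 1 array left out. In females it went from 4 to 7 without mice 4, 7 and 51 and to 2 without the arrays high in blood-cell genes (an alternative chosen after seeing the data), and ran from 2 to 7 with 1 array left out. With the mouse as a random replicate block 7 were called in females and 6 in males, and as a fixed block 6 and 7. Over all genes the fixed block gave 726 and 406 calls in males and females, and the random block 535 and 366, against 285 and 174. With 1 array left out, the region difference was called for 153 to 448 of all genes in males and 37 to 793 in females. Il34 between WT sexes in the hippocampus was 1 call as reported, 0 with equal array medians, and 0 to 1 with 1 array left out. The region counts of WT mice ran from 3 to 5 and from 4 to 5. The sex differences stayed at 0 in all alternatives run. Over all alternatives for single genes, 3079 results kept direction and side of the threshold, 50 gained a call, 89 lost one, and 78 changed sign. None of the 78 was called before or after, and none exceeded 0.127 in size. With 1 array left out, Cebpd in female hippocampus ran from -0.13 to 0.13, Il34 there from -0.034 to 0.12 and Cebpb in male hippocampus from -0.014 to 0.073. Sex differences in the cortex ran from -0.044 to 0.13 (Csf1r), -0.0055 to 0.12 (Csf1), -0.076 to 0.20 (Irf8), -0.0041 to 0.040 (Runx1) and -0.16 to -0.0021 (Il34). In the hippocampus they ran from -0.13 to 0.15 (Csf1r), -0.040 to 0.096 (Csf1), -0.098 to 0.35 (Irf8), -0.13 to 0.019 (Irf5), -0.034 to 0.16 (Spi1) and -0.0013 to 0.047 (Runx1). Irf8 between WT regions ran from -0.029 to 0.046 in males and -0.074 to 0.015 in females. Between WT sexes Cebpb ran from -0.049 to 0.079 and Cebpd from -0.11 to 0.0088 in the cortex, and Runx1 from -0.015 to 0.0066 and Spi1 from -0.024 to 0.046 in the hippocampus. Equal array medians turned Cebpb in male hippocampus (-0.0018), Irf8 between WT regions in males (-0.0082), Cebpb between WT sexes in the cortex (-0.0059) and Runx1 in the hippocampus (0.0087). Quantile normalisation turned Cebpd in female hippocampus (0.0100), the cortex sex difference of Runx1 (-0.015), and between WT sexes Cebpb in the cortex (-0.0085) and Runx1 in the hippocampus (0.0053). The choroid covariate turned Cebpb in male hippocampus (-0.087) and the cortex sex differences of Runx1 (-0.0037) and Irf8 (-0.0022). Without mice 4, 7 and 51, Cebpd in female hippocampus was 0.11, Irf8 between WT regions in males -0.029, and Cebpb and Cebpd between WT sexes in the cortex -0.027 and 0.0088. Without the arrays high in blood-cell genes, cortex sex differences were -0.078 (Csf1r), -0.020 (Csf1), 0.010 (Il34), -0.10 (Irf8) and -0.0088 (Runx1). Unless a value beside a result shows it, the cause was not tested. Dim probe sets (Runx1 and Spi1, and in WT mice Irf8 and Irf5) limit what fold can be seen.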
